A study of Mus musculus with 30 samples.

Results

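The regions described here are promoters at which CHD4, CHD8, SMARCA4 and SMARCA5 all had a peak in unperturbed mouse embryonic stem cells, away from CTCF. They were chosen by their 0 h peaks. Peaks of the 8 remodeler lists of 0 h on chromosomes 1 to 19 and X were merged where they overlapped by at least 1 bp, regions within 1 kb of a 0 h CTCF peak were dropped, and regions with a peak in all 8 lists that lay within 1 kb of an annotated start site were kept. This left 6503 promoters of 186686 merged regions. Of these merged regions, 15766 held a peak in all 8 lists, and 22363 were promoter regions more than 1 kb from CTCF.

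Chromatin immunoprecipitation and sequencing (ChIP-seq) was done on E14 mouse embryonic stem cells kept in serum-free medium with LIF and the inhibitors PD0325901 and CHIR99021. All groups carry CTCF AID, a CTCF fused to an auxin-inducible degron through which the auxin IAA sends the protein to the proteasome. The remodeler groups also carry biotin-CHD4, biotin-CHD8, biotin-SMARCA4 or biotin-SMARCA5, and each was sampled without IAA (0 h) and after 12 h of IAA, with 2 libraries per remodeler and time. CTCF and SMC1A were profiled in CTCF AID cells without a tagged remodeler, with 1 library per time. The labels do not say whether a line is 1 clone, how a tagged remodeler is expressed, or whether replicates came from separate cultures, so p-values measure only the spread between these libraries, which may be technical.

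The 16 remodeler lists held 40870 to 187275 peaks each. The lists carry no read counts, so depth is unknown, and a peak that is not listed says only that signal stayed below the caller's limit. The CTCF list fell from 29926 peaks at 0 h to 2247 at 12 h and the SMC1A list from 16723 to 10, in single libraries. Of 9 stem cell markers, Pou5f1, Nanog, Esrrb, Zfp42 and Dppa5a had a promoter among the 6503, and Sox2, Klf4, Tfcp2l1 and Tdgf1 held all 8 lists in a region at CTCF. Of the fibroblast markers, Postn and Dcn had no 0 h remodeler peak at their starts, Col1a2 and Thy1 had 4 of the 8 lists, and Col1a1 had 8 at CTCF. Peaks were also listed at endoderm and neural markers: Sox1 and Pax6 were among the 6503, Gata4 had 7 lists, Dab2 6 and Sox17 3, and Gata6 and Nes had 8 at CTCF.

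Chromatin remodelers use ATP to slide, evict or exchange nucleosomes. CHD4 is the motor of the NuRD complex, which also carries histone deacetylases. SMARCA4 (BRG1) is the motor of the BAF (SWI/SNF) complexes, which open chromatin at promoters and enhancers, and SMARCA5 (SNF2H) is the motor of the ISWI complexes, which space nucleosomes. CHD8 is known for binding active promoters in stem and neural cells. CTCF is a zinc finger protein at which cohesin, a ring-shaped complex that includes SMC1A, stops when it draws out loops of chromatin.

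Promoter sequences of 7 of these regions show the range of bases under the shared peaks. Each is the 150 bases just before the start site, on the gene's strand, read from the GRCm38.p6 RefSeq genome; none overlaps an annotated exon. Chd4 and Smarca4 were chosen as 2 of the remodelers' own genes, Rps21 and Rpl37a as ribosomal protein genes with ETS and NRF1 matches, Nicn1 as 1 that held the fewest 12 h lists, and Nanog and Hist1h2bb as CpG-poor examples. Capitals mark matches, on either strand, to the short motifs named in the paragraph on sequence. The windows lie at chr6:125095831-125095980 (Chd4), chr9:21616019-21616168 (Smarca4), chr2:180257227-180257376 (Rps21), chr1:72711140-72711289 (Rpl37a), chr9:108290279-108290428 (Nicn1), chr6:122707339-122707488 (Nanog) and chr13:23746584-23746733 (Hist1h2bb), all on the plus strand.
Chd4: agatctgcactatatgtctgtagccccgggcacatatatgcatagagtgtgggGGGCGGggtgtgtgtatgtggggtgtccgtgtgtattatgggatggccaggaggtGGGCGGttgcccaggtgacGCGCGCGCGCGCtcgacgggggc
Smarca4: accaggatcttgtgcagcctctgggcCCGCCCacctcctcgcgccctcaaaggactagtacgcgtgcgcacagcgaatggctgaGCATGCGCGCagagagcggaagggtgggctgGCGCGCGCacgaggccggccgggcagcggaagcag
Rps21: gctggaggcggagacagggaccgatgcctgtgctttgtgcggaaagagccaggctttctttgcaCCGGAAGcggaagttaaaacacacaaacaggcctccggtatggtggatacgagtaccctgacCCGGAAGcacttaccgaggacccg
Rpl37a: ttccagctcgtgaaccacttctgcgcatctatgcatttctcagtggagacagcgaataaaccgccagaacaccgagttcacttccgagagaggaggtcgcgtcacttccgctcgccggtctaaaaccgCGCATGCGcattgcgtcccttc
Nicn1: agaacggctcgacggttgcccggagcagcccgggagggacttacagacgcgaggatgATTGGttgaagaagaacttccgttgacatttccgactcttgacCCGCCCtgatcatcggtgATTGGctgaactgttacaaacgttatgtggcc
Nanog: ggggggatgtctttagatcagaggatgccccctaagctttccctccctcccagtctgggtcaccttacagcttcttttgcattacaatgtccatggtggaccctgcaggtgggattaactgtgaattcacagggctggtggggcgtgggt
Hist1h2bb: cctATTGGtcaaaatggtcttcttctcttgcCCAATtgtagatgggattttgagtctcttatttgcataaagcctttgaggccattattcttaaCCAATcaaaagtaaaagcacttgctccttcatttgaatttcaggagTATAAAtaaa
The Smarca4 window held 17 CpG, while the Nanog window held 1 CpG and the Hist1h2bb window, at 34.7% G or C, held none. The Rps21 window carries CCGGAAG in 2 places, and that of Rpl37a reads GCATGCG on both strands at the same place. Hist1h2bb has TATAAA close to its start and CCAAT or its complement in 3 places.

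The question put to these promoters was which genes they serve and whether the remodelers were still listed there after 12 h of IAA. They were: each of the 8 12 h libraries listed a peak at 91.1% to 99.8% of them. The share was 99.2% and 96.7% in the CHD4 libraries (replicates 1 and 2), 99.8% and 98.3% for CHD8, 99.5% and 99.5% for SMARCA4, and 97.5% and 91.1% for SMARCA5. SMARCA5 replicate 2 was the lowest, with 577 promoters lacking a peak, and CHD8 replicate 1 the highest, with 12. The mean was 97.9% ± 1.75 (SD, n = 2) for CHD4, 99.1% ± 1.05 for CHD8, 99.5% ± 0.033 for SMARCA4 and 94.3% ± 4.49 for SMARCA5. The same regions moved by 100 kb to either side held a peak in 12.9% to 25.3% of cases (mean of both sides, over the 8 libraries).

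**Figure D1:**
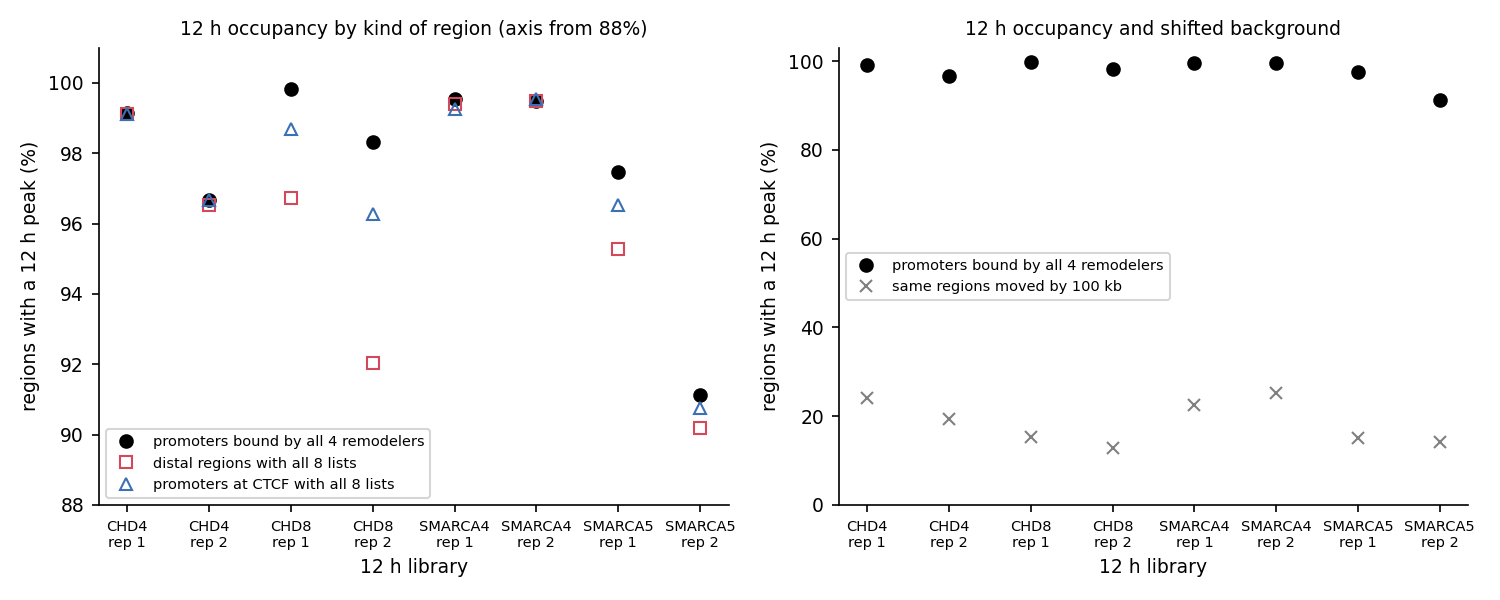
Share of regions with a peak in each of the 8 12 h libraries (points, 1 per library). Left, promoters bound by all 4 remodelers (filled circles), distal regions (squares) and promoters at CTCF (triangles), all with a 0 h peak in 8 lists, on an axis that starts at 88%; right, the promoters beside the same regions moved by 100 kb, which stayed between 12.9% and 25.3%. The kinds stand apart most in the CHD8 libraries, where distal regions were at 96.7% and 92.0%.

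Of the 6503 promoters, 5543 (85.2%) held a peak in all 8 12 h lists, against 31.2% of all 22363 promoter regions with any 0 h peak. A further 764 held 7 lists, 161 held 6, 30 held 5 and 5 held 4, and none held fewer. Among the 764 with 7 lists, 438 (57.3%) lacked SMARCA5 replicate 2 alone and 125 lacked CHD4 replicate 2. Both 12 h libraries of a remodeler lacked a peak at 57 promoters for SMARCA5, 30 for CHD4, 8 for CHD8 and 6 for SMARCA4. In all, 6404 promoters kept a peak of every remodeler in at least 1 of its 12 h libraries, 97 had none of 1 remodeler, and 2 had none of 2.

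The number of 0 h lists went with the number of 12 h lists. Promoter regions with 7 0 h lists numbered 2260, of which 1309 (57.9%) lacked only SMARCA5 replicate 1, so that 1 list left out most of them. Of those 2260, 46.2% held all 8 12 h lists, and the share was 20.2% with 6 lists and 0% with 1. The median width moved with it, from 220 bp with 1 list to 1561 bp with 7 and 2219 bp with 8, and a wide region can touch more peaks. Within the 6503, the narrowest 1301 (379 to 1618 bp) held all 8 12 h lists in 65.3% of cases and the widest 1301 (3338 to 22196 bp) in 98.3%.

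**Figure D2:**
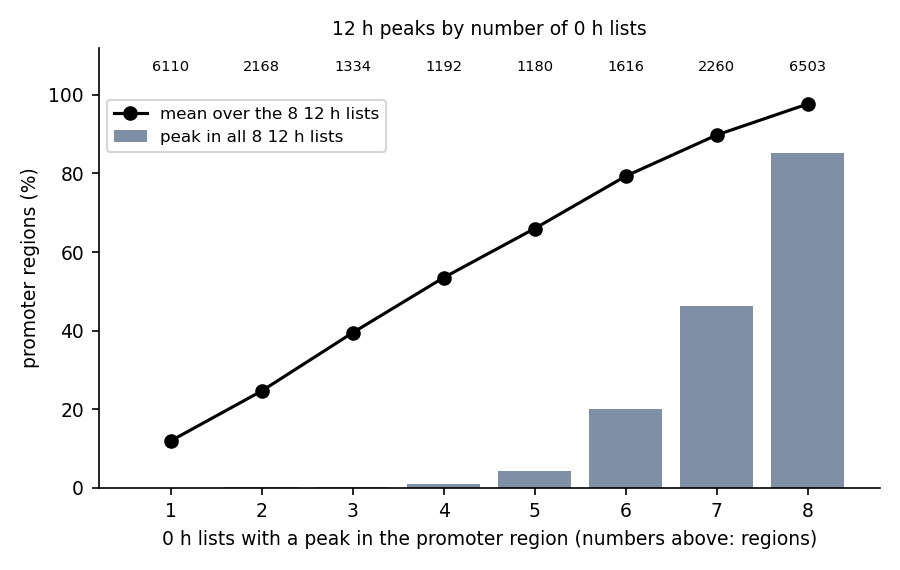
Promoter regions more than 1 kb from CTCF, grouped by how many of the 8 0 h lists held a peak (x axis; numbers above the bars count regions). Bars give the share with a peak in all 8 12 h lists and points the mean share over the 8 12 h libraries, both in percent; bars reach 46.2% at 7 lists and 85.2% at 8.

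The strongest promoters ranked near the top of most lists. Ranks are percentiles of a peak by −log10 p within its own list, so that 100 is the strongest peak. A region takes the rank of its strongest peak, which in a wide region may lie far from the start. By the mean 0 h percentile, which the choice of members used, the 8 highest were Xrn2 (a nuclear exoribonuclease that ends transcription), Polr2e (a subunit shared by the RNA polymerases), Usp48, Rif1 (a regulator of replication timing), Clk1 (a kinase of splicing factors), Taf8 (a TFIID subunit), the long non-coding RNA Malat1, and Plcxd1. Each held all 8 12 h lists, with 12 h mean percentiles of 96.3 (Taf8) to 99.0 (Polr2e). A region is named by 1 gene in this text, though other genes can start within 1 kb of it. Those of Polr2e, Taf8 and Plcxd1 are shared with Gpx4, Ccnd3 and Gtpbp6, in that order, and that of Malat1 with Gm37376 and Gm27694. At Rif1 the 12 h percentiles were 96.3 and 94.3 for CHD4, 99.2 and 98.7 for CHD8, 99.8 and 99.2 for SMARCA4, and 99.9 and 98.7 for SMARCA5. At Malat1 they were 95.8 and 98.3 for CHD4, 97.9 and 96.3 for CHD8, 99.89 and 99.99 for SMARCA4, and 99.5 and 99.8 for SMARCA5. No library stood low at either promoter.

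The promoters that held fewest 12 h lists were narrow and weak at 0 h. The 35 with 5 or fewer lists had a median width of 1510 bp and a median 0 h percentile of 57.6, against 2350 bp and 79.6 for the 5543 with all 8. Of the 35, 26 lacked CHD4 replicate 2, 25 lacked SMARCA5 replicate 2, and 5 lacked CHD8 replicate 1. The 5 promoters with 4 lists were those of Polr3f (an RNA polymerase III subunit), Nicn1, Helt (a bHLH repressor of neural lineages), Gm34150 and Gm45521. At Nicn1 (chr9:108289856-108290884, GRCm38), both CHD4 and both SMARCA4 12 h libraries lacked a peak, whereas CHD8 stood at the percentiles 84.8 and 85.0, close to its 80.4 and 80.6 at 0 h. SMARCA4 had stood at 14.3 and 10.3 there at 0 h and CHD4 at 68.2 and 11.9, so 3 of the 4 peaks no longer listed had been low in their lists. Polr3f (chr2:144527097-144528260, shared with Dzank1) lacked both CHD4 libraries, and its CHD8 percentiles were 92.5 and 89.6 at 0 h and 94.0 and 94.8 at 12 h. Its CHD4 percentiles at 0 h had been 51.3 and 1.21, so 1 of them was already near the bottom of the list. Gm45521 went the other way and lacked both CHD8 libraries, which had stood at 33.5 and 19.6 at 0 h. Of the 30 with 5 lists, the 3 with the highest 0 h percentiles were those of Zfp558, Chchd6 and Abraxas2.

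Because the rule requires a peak in every 0 h list, the 2 times cannot be tested on the 6503 promoters themselves. For each remodeler a set was therefore built from the 0 h peaks of the other 3 alone (6643 to 8868 promoters), and that remodeler's libraries were compared over it by an exact permutation test of the time labels within remodelers, two-sided. Occupancy of these shared promoters by CHD4 was 98.3% and 98.2% at 0 h and 98.3% and 95.4% at 12 h. CHD8 was listed at 96.4% and 93.7% of them at 0 h and 97.3% and 94.5% at 12 h. SMARCA4 was listed at 99.4% and 97.2%, then 99.1% and 99.2%, and SMARCA5 at 77.3% and 88.3%, then 91.3% and 82.7%. The times overlapped for each of the 4 remodelers. The mean change was +1.13 percentage points (95% interval −2.39 to 4.96 from the exact permutation test, p = 0.503, adjusted p = 0.503 over 7 tests), less than the pooled replicate SD of 3.72. Leaving out SMARCA5 0 h replicate 1 turned the value to −0.20.

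Peak rank at the shared promoters changed by +1.92 percentile points (−2.04 to 5.87, exact permutation p = 0.307, adjusted p = 0.456). SMARCA4 moved most, from median percentiles of 84.1 and 74.2 at 0 h to 83.6 and 82.8 at 12 h, and these overlap. Without SMARCA4 0h replicate 2 the mean change was 0.62, and without SMARCA4 0h replicate 1 it was 3.18. The median distance of the summit from the nearest start site changed by −14.8 bp (−38.0 to 3.84, exact permutation p = 0.142, adjusted p = 0.331). SMARCA5 carried most of this value, with medians of 423 and 372 bp at 0 h and 332 and 348 bp at 12 h, which do not overlap. CHD4 did not overlap either, with 242 and 240 bp, then 237 and 239 bp. CHD8 stood at 131 and 125 bp, then 128.5 and 125 bp. Without SMARCA5 0h replicate 1 the change was −7.63 bp.

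**Figure D3:**
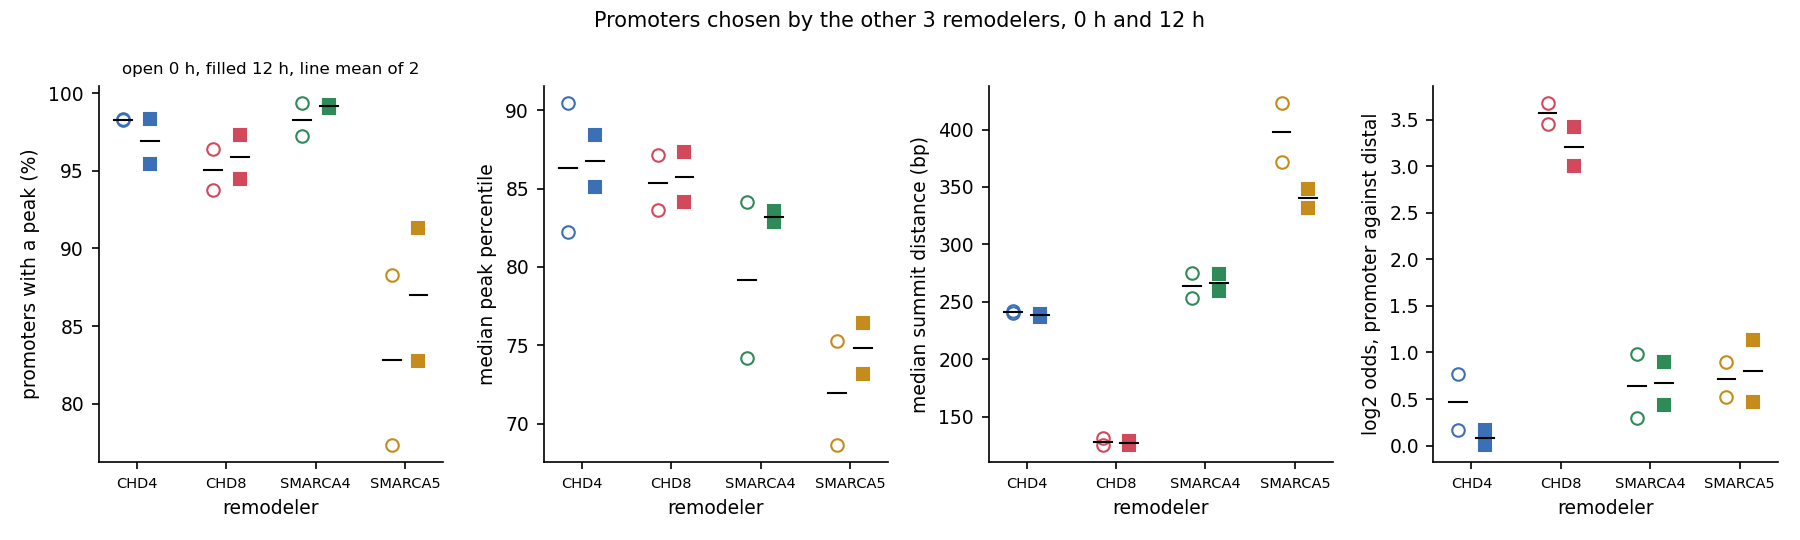
Values per library at promoters chosen by the other 3 remodelers, at 0 h (open circles) and 12 h (filled squares), with the mean of 2 libraries as a line; the panels give the share with a peak in percent, the median peak percentile, the median summit distance in bp, and the log2 odds of a peak at promoters against distal regions. SMARCA5 occupancy spread from 77.3% to 91.3%, wider than any shift between times, and its summit distances fell from 423 and 372 bp to 332 and 348 bp.

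Relative to distal regions more than 1 kb from any start site and chosen in the same way, promoter occupancy changed by −0.15 log2 odds (−0.50 to 0.20, exact permutation p = 0.346, adjusted p = 0.456). CHD8 fell from 3.68 and 3.46 to 3.42 and 3.00, without overlap, as its distal share rose from 67.5% and 57.7% to 77.2% and 68.0%. With 2 libraries against 2, CHD8 alone allows no exact test below 0.05. The value rose to 0.01 where only peaks with a −log10 q of at least 5 were used, and lay between −0.24 and −0.04 when single libraries were left out.

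The share with all 8 12 h lists lay close together over all distances from CTCF. All 8 lists were held by 85.6% of promoters 1 to 5 kb from the nearest 0 h CTCF peak, 84.1% at 5 to 10 kb, 85.6% at 10 to 50 kb and 84.8% farther away. At the shared promoters, those within 10 kb of CTCF against those beyond changed by +0.14 log2 odds (−0.13 to 0.47, exact permutation p = 0.390, adjusted p = 0.456). CHD4 moved by −0.14 and SMARCA5 by 0.21, each without overlap of the times, CHD8 by −0.07 and SMARCA4 by 0.56 with overlap. Without SMARCA5 0h replicate 1 the mean was 0.03, and without SMARCA4 12h replicate 2 it was 0.05. Without SMARCA4 12h replicate 1 it was 0.24, and with lists of equal length it was 0.25 (exact permutation p = 0.0293, adjusted p = 0.205). It was 0.02 where a summit had to lie inside the region, 0.07 where the other remodelers' peaks of both times chose the set, and 0.23 with a limit of 5 kb.

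At 12 h the promoters were compared with 4938 distal regions and with 2673 promoters at CTCF, all with 8 lists at 0 h. Against distal regions the odds of a 12 h peak were higher by 1.01 on the log2 scale (95% interval 0.07 to 2.29), with the same sign in 8 of 8 libraries, although SMARCA4 replicate 2 stood at 0.003, with 99.5% in both kinds of region. The exact sign-flip permutation test gave p = 0.00781, the smallest it can give, and an adjusted p of 0.0547, which did not pass 0.05 and which this test could not lower by itself. That test counts the 2 libraries of a remodeler as separate units. Where they vary together, p is too low and the interval too narrow. CHD8 led the difference: its replicates had log2 odds of 4.13 and 2.34, with 99.8% against 96.7% and 98.3% against 92.0%. The mean was 0.55 for SMARCA5, 0.20 for SMARCA4 and 0.07 for CHD4. The value was 0.27 without CHD8 (chosen after seeing the data), 0.33 with a −log10 q of at least 5, 0.16 with lists of equal length, and 0.46 within classes of 0 h percentile. It was 1.22 within classes of region width and 1.16 where a summit had to lie inside the region. Against distal regions 1 to 10 kb from a start, also chosen after seeing the data, it was 0.91. Leaving out CHD8 12h replicate 1 gave 0.57.

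Against promoters at CTCF the difference was 0.65 log2 odds (−0.01 to 1.49, exact sign-flip permutation p = 0.0547, adjusted p = 0.191), in 7 of 8 libraries. Here too the libraries of a remodeler were counted as separate units. CHD8 again had the largest values, 2.80 and 1.19, and SMARCA4 replicate 2 the only negative one, −0.14. The value was 0.35 without CHD8 12h replicate 1, 0.21 without CHD8, and 0.97 within classes of 0 h percentile.

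The 4 remodelers differed in how often their summits lay close to the start of the same promoters. The summit of the best peak lay within 250 bp of the start site at 69.3% to 70.3% of promoters with a 12 h peak for CHD8, 44.9% to 45.3% for CHD4, 37.4% to 40.4% for SMARCA4 and 25.8% to 29.2% for SMARCA5. Within 100 bp on either side of the start lay 32.5% and 34.3% of CHD8 summits, 16.02% and 18.5% for CHD4, 9.01% and 8.04% for SMARCA4, and 6.40% and 4.99% for SMARCA5. Between 100 and 400 bp downstream lay 40.2% and 35.5% of the SMARCA4 summits and 28.8% and 31.4% of those of SMARCA5. CHD4, with 26.5% and 28.0%, and CHD8, with 27.9% and 24.0%, were not far below SMARCA5 there. The same span upstream held 13.9% and 15.9% for SMARCA4, so its summits formed a larger downstream and a smaller upstream group with a dip at the start. Median positions were +49 and +24 bp for CHD8 and +38 and +72 bp for CHD4, which overlap. They were +161 and +153 bp for SMARCA4 and +153 and +193 bp for SMARCA5, which also overlap. At 0 h the shares within 100 bp were 31.8% and 33.2% for CHD8 and 4.52% and 5.32% for SMARCA5, in the same order of remodelers. The start used, the anchor, was a protein-coding one where present, and the nearest to the median of the 8 0 h summits. Closeness of summits to it is thus partly set by this choice, at 0 h above all. The zones were chosen after the positions had been seen, and the values carry no test.

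**Figure D4:**
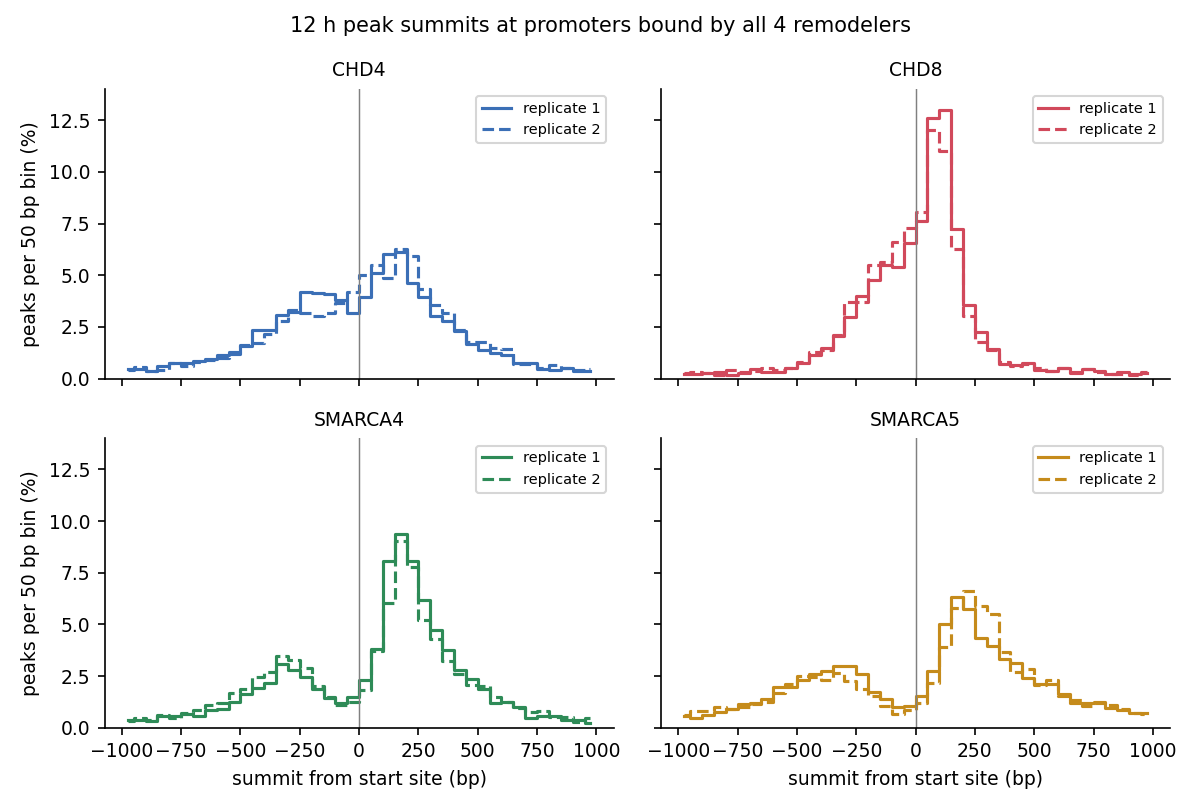
Position of the summit of the best 12 h peak relative to the start site of the anchor gene (x axis, bp, downstream positive), as the share of peaks per 50 bp bin in percent, for each remodeler and replicate. CHD8 has 1 main mass around the start, highest in the bins that begin 50 and 100 bp downstream. Of its summits, 32.5% and 34.3% lay within 100 bp of the start. SMARCA4 and SMARCA5 have 2 masses with a dip at the start.

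The peaks also differed in strength. Of the 1000 strongest 12 h CHD8 peaks, 54.0% and 53.3% lay in these promoters, against 22.5% and 24.4% for CHD4, 16.4% and 15.6% for SMARCA4, and 23.6% and 23.2% for SMARCA5. Of all peaks in the 12 h lists, 15.8% and 19.6% lay there for CHD8 and 9.03% and 14.1% for CHD4. The shares were 9.80% and 9.44% for SMARCA4 and 17.3% and 17.6% for SMARCA5. The authors' fold enrichment at the best peak had a median of 12.2 and 8.34 for CHD8, where the lists as a whole had 4.35 and 4.22. For SMARCA5 the medians were 4.61 and 3.68 against 3.65 and 3.33. Across promoters, the 12 h percentiles of CHD8 replicates had a Spearman rho of 0.965 (6390 promoters), those of SMARCA4 0.764 (6446), of CHD4 0.720 (6262) and of SMARCA5 0.428 (5819). Between CHD8 and the CHD4 or SMARCA4 libraries rho lay between −0.16 and −0.06, and between SMARCA4 and CHD4 between 0.32 and 0.37. These points share their libraries and their choice by 0 h peaks, and rho is given as a description.

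Genes with a start within 1 kb of these promoters numbered 8385, of which 6397 were protein-coding. This was 29.4% of the 21728 protein-coding genes on the chromosomes used. A protein-coding start lay at 5833 promoters (89.7%), 666 served 2 protein-coding genes and 34 served 3 or more, and 493 (7.58%) held a divergent pair with starts within 1 kb. Divergent promoters held all 8 12 h lists in 80.9% of cases and the other protein-coding ones in 85.9%, with median widths of 2149 and 2187 bp. The 670 without a protein-coding start included 219 with a lincRNA as the nearest gene, and 83.4% of the 670 held all 8 12 h lists.

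Pluripotency factors stood above the 29.4% of all protein-coding genes, with 16 of 27 (59.3%) at these promoters. A further 8 were in regions with all 8 lists at CTCF, against 2499 of all 21728 protein-coding genes. Of the 16, 15 (93.8%) held 8 12 h lists, all but Dppa4, against 85.6% over all protein-coding genes with such a promoter. At Nanog, a homeobox factor of the naive state, the 12 h percentiles were 98.8 and 98.7 for CHD4, 99.7 and 99.6 for SMARCA4, and 99.2 and 99.9 for SMARCA5, while CHD8 stood lower at 84.5 and 81.8. At Dppa5a CHD8 was again the lowest, with 99.98 and 99.98 for CHD4, 99.9 and 99.8 for SMARCA4, 97.2 and 99.6 for SMARCA5, and 86.7 and 81.3 for CHD8. Klf2 had CHD8 at 87.9 and 86.1 and the other 6 libraries at 95.3 to 99.8. The Nanog region (chr6:122701379-122708657) was 7279 bp wide, with the start at 122707489, and that of Dppa5a 11883 bp. Their percentiles are those of the strongest peak anywhere in the region and need not describe the start itself. The region of Pou5f1, whose protein OCT4 is required for pluripotency, was 9396 bp wide (chr17:35498855-35508250) and lay 1044 bp from CTCF.

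The 3 widest regions were at Cdh1 (E-cadherin, 22196 bp, chr8:106602589-106624784), Fn1 (fibronectin, 16910 bp) and Polr2e (16515 bp), all with 8 12 h lists. For the strongest peak anywhere in the Cdh1 region, CHD8 stood at 81.4 and 73.9 and CHD4 at 99.97 and 99.996. The narrowest were at the small RNA gene Gm25890 (379 bp, 8 lists) and Ccdc82 (614 bp, 7 lists).

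Genes for growth were covered to different degrees, and all shares are counts against 29.4%, with no test. Counts at CTCF stand beside 2499 of all 21728 protein-coding genes in such regions. Cytoplasmic ribosomal proteins had 32 of 79 genes (40.5%) here and 28 more at CTCF, translation factors 23 of 41 (56.1%), splicing factors 23 of 50 (46.0%), proteasome subunits 12 of 31 (38.7%), complex I subunits 14 of 37 (37.8%), and mitochondrial ribosomal proteins 23 of 75 (30.7%). RNA polymerase II and Mediator subunits had 14 of 41 (34.1%). All 8 12 h lists were held by 24 of the 32 ribosomal protein genes (75%) and by 9 of the 14 complex I genes (64.3%), against 85.6% over all protein-coding genes with such a promoter. At Rps21, a small-subunit protein whose promoter carries 2 ETS matches, the 8 12 h percentiles lay between 93.6 and 98.9. At Rpl37a, with its NRF1 match, CHD4 stood at 99.7 and 97.9 and CHD8 at 99.3 and 99.1, and SMARCA4 lower at 66.2 and 82.3.

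Replication and cell cycle genes had 24 of 43 (55.8%) at these promoters, and 16 of the 24 (66.7%) held all 8 12 h lists. Over all protein-coding genes with such a promoter that share was 85.6%. Pcna (chr2:132251837-132254521), the sliding clamp of DNA polymerase, held 5, without CHD4 in either library and without SMARCA5 replicate 2. Its CHD4 percentiles at 0 h were 55.3 and 35.5, and its CHD8 percentiles were 94.3 and 90.4 at 0 h and 90.6 and 86.3 at 12 h. Cdc45 and Mcm4 held 6 lists. Of the p53 targets, 10 of 21 (47.6%) were here, and Xpc, a DNA damage sensor, also held 5 lists and lacked both CHD4 libraries. The Xpc region is shared with Lsm3, and its CHD4 percentiles at 0 h had been 3.31 and 85.7. Zinc finger genes with a Zfp number had 149 of 365 (40.8%). Of the 149, 121 (81.2%) held all 8, near the 85.6% given above, and Zfp558 and Zfp953 held 5.

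Replication-dependent histone genes had 40 of 67 (59.7%), all with 8 12 h lists, against 85.6% over all protein-coding genes with such a promoter. The 40 genes lay on only 20 promoters because the genes are clustered. Histone genes, like many zinc finger genes, belong to families of related sequence. How any reads shared between similar sequences were placed is not given in the sources used here. Hist1h2bb and Hist1h3c shared a region of 7923 bp. There SMARCA5 stood at 98.4 and 97.9 and SMARCA4 at 97.5 and 98.0 at 12 h, CHD8 at 92.1 and 87.1, and CHD4 at 76.8 and 92.0.

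Lineage regulators had 8 of 32 genes (25%) at these promoters, near the 29.4% of all protein-coding genes. Of the 8, 6 (75%) held all 8 12 h lists, against 85.6% over all protein-coding genes with such a promoter. Among the 8, Sox1, Pax6, Gata2 and Lhx2 held 8 lists, and Foxa2 and Neurog1 held 7. A further 17 had 1 to 7 lists at 0 h, against 5680 of all 21728 protein-coding genes. The median 12 h percentile of the 8 was 70.6, against 80.2 over all protein-coding genes with such a promoter. Genes of differentiated tissues had 2 of 33 (6.06%), and of 1092 olfactory receptor genes none had such a promoter. Immediate early genes had 6 of 19 (31.6%), among them Fos and Ier2. A further 10 lay at CTCF, against 2499 of all 21728 protein-coding genes. Wnt targets had 9 of 20 (45.0%), among them Axin2.

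**Figure D5:**
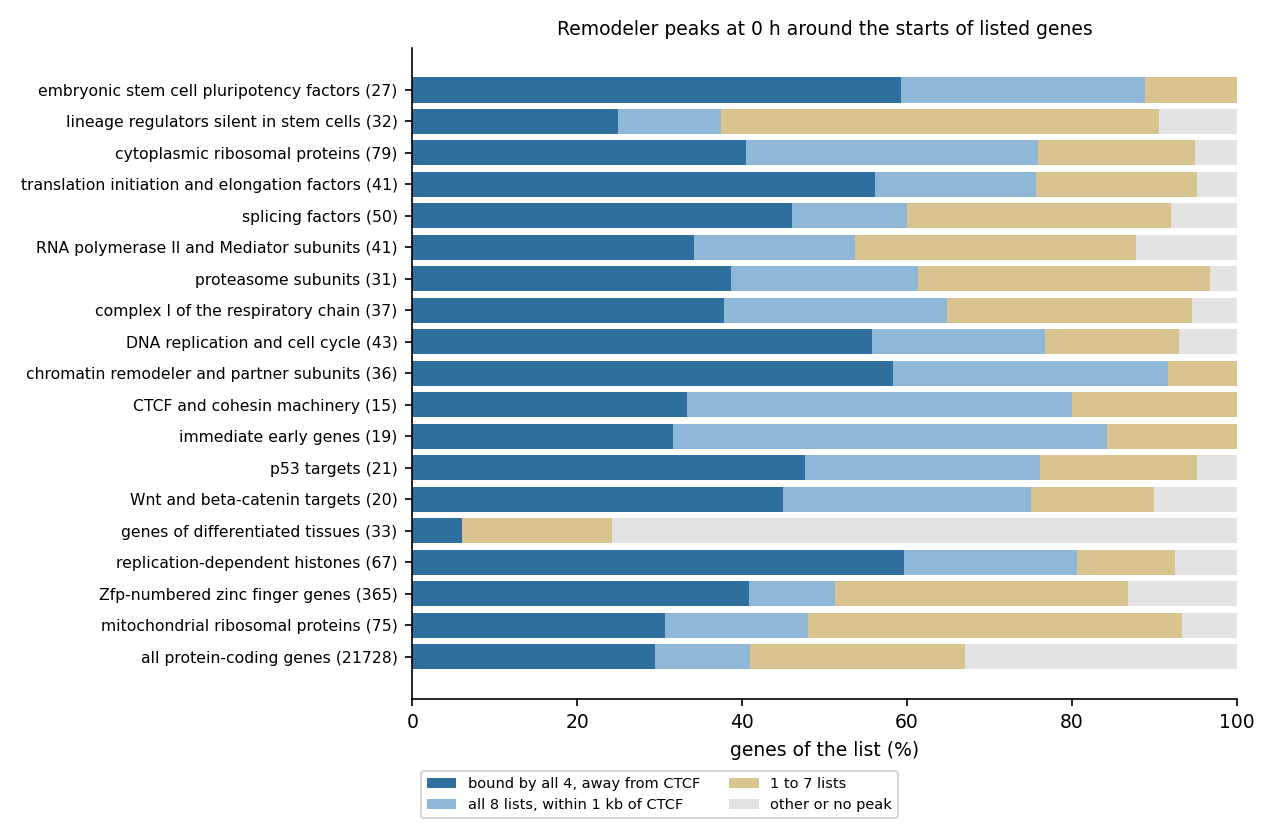
Share of the genes of each list (number of genes in brackets, x axis in percent) whose start lies within 1 kb of a promoter bound by all 4 remodelers away from CTCF, in a region with all 8 lists at CTCF, in a promoter region with 1 to 7 lists, or in none of these. Pluripotency factors reach 59.3% in the first kind, all protein-coding genes 29.4% and genes of differentiated tissues 6.06%.

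The remodelers' own genes were partly among them. Subunits of the 4 remodelers' complexes had 21 of 36 genes (58.3%) here and 12 more at CTCF. Over all 21728 protein-coding genes these counts were 6397 and 2499. Chd4, Smarca4 and Smarca5 had such a promoter, while Chd8 held all 8 lists in a region that touched CTCF. The NuRD genes here included Mta1, Mta2, Hdac2 and Gatad2a, the BAF genes Arid1a, Smarcb1 and Actl6a, and the ISWI genes Baz1a, Baz1b and Chrac1, each with 8 12 h lists. Of the 21 genes, 20 (95.2%) held 8 lists, against 85.6% over all protein-coding genes with such a promoter. At Chd4 the 12 h percentiles of CHD4 itself were 97.7 and 98.8, against 95.2 and 87.5 at 0 h. At Smarca5 CHD4 stood low, at 59.2 and 10.6 at 0 h and at 8.79 in 1 library at 12 h with no peak in the other, while SMARCA5 stood at 89.7 and 87.2. Of CTCF and cohesin genes, 5 of 15 were here. Rad21, the cleavable cohesin subunit, held 8 lists with a 12 h mean percentile of 90.5, whereas Ctcf and Smc3 lay at CTCF and Smc1a, on the X chromosome, had 5 of the 8 0 h lists.

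Chromosome X stood apart. It carried 54 of the promoters and 44 of its 948 protein-coding genes (4.64%), against 21.9% on chromosome 7, the next lowest, and 41.8% on chromosome 8, the highest. The gap was present in each of the 16 lists: a peak lay within 1 kb of a start for 8.65% and 13.6% of X genes in the SMARCA5 0 h lists against 48.4% and 56.7% of autosomal genes, and for 45.8% and 42.3% against 65.0% and 61.8% in the CHD8 0 h lists. In the 12 h lists, which the rule did not use, all 8 had a peak at 82 X genes (8.65%) and at 8878 autosomal genes (42.7%). Among the 54, which include Tsix, Kdm6a, Ogt and Atrx, 83.3% held all 8 12 h lists, against 85.3% on the autosomes. Copy number was not measured here, and its part in the gap was not tested.

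Cohesin marked a minority of these promoters at 0 h. SMC1A had a peak at 889 (13.7%, exact 95% interval 12.8 to 14.5, counting error over regions only), against 1.41% of all merged regions over 1 kb from CTCF and 4.48% of the same promoters moved by 100 kb. It was at 11.6% of the distal regions with 8 lists and at 50.2% of promoters at CTCF. These SMC1A peaks were weak, with a median fold of 4.01 against 5.55 over the list, and 45.8% had their summit within 250 bp of the start. The share was 9.92% in the narrowest promoters and 24.3% in the widest, and 18.3% more than 50 kb from CTCF against 11.8% at 1 to 5 kb. Those with SMC1A held all 8 12 h lists in 92.9% of cases and those without in 84.0%, with median widths of 2630 and 2181 bp. At 12 h 1 promoter, at Cpped1, had an SMC1A peak, from a list of 10, and none had a CTCF peak.

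Bases around the starts set these promoters apart from starts without remodeler peaks. For the promoters' 5824 protein-coding starts, chosen as nearest to the median 0 h summit, the 300 bp from 250 bp before to 50 bp after were used. They had a median of 64.0% G or C and an observed over expected CpG ratio of 0.82. Of them, 78.6% were CpG-rich (at least 50% G or C and a ratio of at least 0.6). Over all 41220 protein-coding starts the values were 56.3%, 0.57 and 45.2%. At the 10681 starts near promoter regions with 1 to 7 lists only they were 57.7%, 0.57 and 43.9%. At the 11964 starts more than 1 kb from any 0 h remodeler region they were 44.7%, 0.16 and 1.55%, and at starts in promoters at CTCF 64.3%, 0.81 and 76.0%. CpG-rich promoters ranked higher for CHD8 at 12 h, with median percentiles of 90.1 and 87.4 against 83.0 and 78.9 for the others, while those of SMARCA4 were 83.4 and 82.0 against 83.1 and 84.6.

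Short motifs were counted on both strands in the same 300 bp, allowing overlaps. The GC box GGGCGG was in 72.7% of the starts and in 45.7% of all protein-coding starts, GCGCGC in 32.6% and 18.0%, the ETS core CCGGAAG in 16.7% and 11.3%, the E-box CACGTG in 11.7% and 7.59%, YY1 AAGATGG in 7.62% and 6.57%, NRF1 GCATGCG in 6.94% and 4.22%, CRE TGACGTC in 6.61% and 3.91%, and ZBTB33 TCTCGCG in 6.40% and 3.52%. CCAAT was in 36.1% and 36.8% and ZNF143 ACTACAA in 3.74% and 3.73%. TATAAA was less common here, in 5.598% against 11.8%, and in 24.4% of starts without remodeler regions. Starts in promoters at CTCF held TATAAA in 5.44%, GGGCGG in 70.2%, GCGCGC in 33.3%, CCGGAAG in 15.5% and CACGTG in 7.90% of cases, so that most of these shares were close to those at CTCF. A match is a description of the letters and not of binding.

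Promoters with an ETS core had higher median 12 h percentiles for CHD8 and lower ones for SMARCA4 and CHD4 than those without it. Single promoters can differ: at Rps21, which carries the core, CHD4 and SMARCA4 stood above CHD8. The medians with the core were 93.5 and 92.1 for CHD8 (971 promoters) against 87.6 and 84.4 without the core (4862). For SMARCA4 they were 77.7 and 76.9 against 84.5 and 83.6, and for CHD4 79.6 and 83.9 against 85.8 and 89.4. Promoters with the YY1 letters had CHD8 at 95.03 and 93.5 against 88.5 and 85.4, and those with NRF1 at 92.6 and 90.6 against 88.7 and 85.7. The direction was the same in both replicates of each remodeler named here. CHD8 percentiles also moved with CpG content (above), whose part in these differences was not tested.

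At the limits of the rule, the promoters nearest to 1 kb from a start were those of Aggf1 (1000 bp) and Gm44467 (998 bp), with 7 and 6 12 h lists. The nearest left out were by Gm23106 (1004 bp) and Taf4 (1006 bp), both with 8. The promoters closest to CTCF were those of Wtap (1001 bp) and Gm43094 (1006 bp), with 8 lists each, and Gm16230 (996 bp) and Mtfmt (995 bp), with 7 each, were left out.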

How the data were processed

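Of 30 samples, 20 had a list of peaks, and the 10 input samples were not analysed here. Per the submitters' processing notes, Trim Galore, Bowtie2, MACS2 and deepTools were used, with the builds mm10 and hg38; versions, parameters and the control of each peak call are not given in the sources used here. The authors deposited 1 narrowPeak list per library, with a fold enrichment over background (a ratio) for each peak. The lists as deposited also give −log10 p and −log10 q per peak, the lowest listed −log10 q being 1.30. No read counts or depths come with them, so precision rests on the number of libraries, and intervals on shares of regions cover counting error over regions only.

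Start sites came from the GENCODE M21 basic annotation of GRCm38, sequences from RefSeq GRCm38.p6. A region held a peak of a list where they overlapped by at least 1 bp, and it was ranked by its strongest −log10 p, as a percentile of that list. Sets for the comparison of times were built from the other 3 remodelers. Time labels were permuted exactly within remodelers and the sign of each 12 h library was flipped exactly for comparisons of region kinds, both two-sided, with Benjamini-Hochberg adjustment over 7 tests at 0.05; odds ratios had 0.5 added to each cell. The smallest p was 0.00154 for times and 0.00781 for kinds. The test of kinds treats the 8 libraries of 12 h as independent, although 2 come from each remodeler. With 2 libraries against 2, a single remodeler cannot reach 0.05. Intervals came from inverting the same tests. Occupancy change, its promoter against distal form and the odds ratio of kinds were tried on simulated data. The other measures were not. Simulated replicates differed only by random sampling of regions, unlike the libraries here.

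Genes named were the 8 with the highest 0 h percentile, the 8 with fewest 12 h lists, the 3 widest and 2 narrowest regions, the 3 strongest genes of each list and those lacking 3 or more 12 h lists, and the remodelers' and cohesin's own genes; other genes of a list, and those named on X, were picked after their values were seen. Members and lists were chosen with earlier results of these data known. Alternatives were a stricter −log10 q, lists of equal length, other start sites and distances, summits in place of overlap, classes of strength and width, each library left out in turn, and blocks by replicate number. Python 3.11.15, NumPy 2.4.6, pandas 2.3.3, SciPy 1.17.1, pysam 0.24.0, samtools 1.23.1 and matplotlib 3.10.9 were used. Some items are not reported here.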

Additional observations from a re-analysis of the deposited data

Results flagged for a closer look

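The change from 0 h to 12 h in the log2 odds of a peak within 10 kb of CTCF against farther away went in opposite directions in 2 remodelers, with every 12 h library on 1 side of both 0 h libraries. For SMARCA5 it was 0.21, from −0.38 and −0.29 at 0 h to −0.24 and −0.005 at 12 h. For CHD4 it was −0.14, from 0.05 and −0.06 to −0.13 and −0.16. The difference between the remodelers was not tested. SMARCA5 occupancy of the promoters within 10 kb was 74.3% and 86.9% at 0 h and 90.5% and 82.7% at 12 h, so the libraries of 1 time differed by more than the kinds of promoter did.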

How the results depend on the processing

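No comparison passed an adjusted p of 0.05 under any alternative that was run. With a −log10 q of at least 5, the number of promoters bound by all 4 remodelers fell to 2100, their mean 12 h occupancy was 94.2%, and the change at promoters against distal regions turned to 0.0071 log2 odds (exact permutation p = 0.969). With lists of equal length there were 3360 promoters with a mean occupancy of 95.1%. Leaving out single libraries moved the occupancy change at shared promoters between −0.20 and 2.51 percentage points; the negative value came without SMARCA5 0 h replicate 1. The same gave 0.57 to 1.16 log2 odds against distal regions at 12 h, 0.35 to 0.77 against promoters at CTCF, 0.03 to 0.24 near against far from CTCF, −20.6 to −7.63 bp for summit distance and 6500 to 7819 promoters, the highest number without SMARCA5 0 h replicate 1. All other alternatives kept the direction of their result. Deviations of same-numbered libraries of the 2 times had correlations of 0.07 for CHD4, 0.24 for CHD8, −0.15 for SMARCA4 and −0.04 for SMARCA5. The labels do not say whether the number pairs libraries, and these values do not settle it. With the replicate block the occupancy change stayed 1.13 points (exact permutation p = 0.734) and no call changed. Depth is unknown, so a lost peak and a weaker library cannot be told apart.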

Other observations

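The SMARCA5 lists held a peak within 1 kb of a start for 8.65% and 13.6% of X-linked protein-coding genes at 0 h and for 20.9% and 18.6% at 12 h, against 48.4% and 56.7%, then 58.5% and 51.4%, of autosomal genes. The 2 times did not overlap on X and overlapped on the autosomes, and this difference was not tested. CHD4 lists gave 34.8% and 37.0% of X genes at 0 h and 38.2% and 28.2% at 12 h.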
